A study of Mus musculus with 11 samples.

Results

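Antibodies of the colon were followed through the RNA of their constant regions, the part of each chain that sets its class. The 10 genes named were Igha, Ighm, Ighd, Ighg1, Ighg2b, Ighg2c and Ighg3 for the heavy chains and Igkc, Iglc1 and Iglc2 for the light chains, picked by name as constant-region genes. Of these, 9 had a row among the 43346 genes of the count table, and Iglc1 was not analysed here. RNA came from whole colon tissue of 11 male mice of the outbred Swiss Webster stock, 5 germ-free and 6 humanized, aged 8 to 10 weeks. Both groups were kept in isolators. Germ-free mice carried no microbiota, and humanized mice were germ-free animals given 300 µL of a stool suspension by gavage at 4 to 5 weeks of age and left for 4 to 5 weeks while the microbiota established. A single healthy human donor provided the stool for every humanized mouse, so the comparison concerns 1 human microbiota, and how the mice were spread over isolators is not given in the sources used here. Counts per mouse ranged from 49097005 to 64148538 in germ-free and from 39125290 to 54219854 in humanized mice, and the 9 genes took 0.0111% to 0.0572% and 0.0585% to 0.433% of them, respectively. Epithelial genes summed to 4809 to 6477 RPKM (reads scaled by gene length and library size) in germ-free and 5514 to 7619 RPKM in humanized mice, and no library duplicated another.

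An antibody joins a pair of heavy chains to a pair of light chains, kappa or lambda. Naive B cells make IgM and IgD from 1 transcript by splicing, and after activation they can switch the constant region by deletion of DNA to an IgG subclass, IgE or IgA, leaving the antigen-binding part as it was. In the gut, plasma cells beneath the epithelium secrete IgA joined by the J chain, and the polymeric immunoglobulin receptor carries it into the lumen. Reads on a constant gene come from secreted, membrane-bound and unswitched germline transcripts alike, and gene counts cannot separate these.

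The IgG subclass genes resemble each other closely, which bears on how well reads can be told apart. The first 120 coding bases of each, which start the first constant domain, are shown because the subclass results rest on these differences. All are from the GENCODE M21 annotation of GRCm38 (mm10), on the minus strand of chromosome 12, and capitals mark the 39 positions at which the 4 genes are not all the same. Ighg1 lies at chr12:113330404-113330523, Ighg2b at chr12:113307814-113307933, Ighg2c at chr12:113288813-113288932 and Ighg3 at chr12:113361113-113361232.
Ighg1: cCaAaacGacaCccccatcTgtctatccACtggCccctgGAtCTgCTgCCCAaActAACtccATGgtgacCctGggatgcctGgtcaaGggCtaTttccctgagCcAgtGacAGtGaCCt
Ighg2b: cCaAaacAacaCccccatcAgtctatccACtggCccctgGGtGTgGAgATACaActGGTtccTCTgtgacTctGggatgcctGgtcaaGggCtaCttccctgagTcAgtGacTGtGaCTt
Ighg2c: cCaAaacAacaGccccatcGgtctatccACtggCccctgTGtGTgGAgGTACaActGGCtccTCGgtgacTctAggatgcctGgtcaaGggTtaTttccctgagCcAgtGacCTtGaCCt
Ighg3: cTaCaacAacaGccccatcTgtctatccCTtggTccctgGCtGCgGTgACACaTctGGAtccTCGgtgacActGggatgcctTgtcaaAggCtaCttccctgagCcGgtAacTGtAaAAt
Over these bases Ighg2b and Ighg2c were the most alike, with 89.2% identity, and Ighg1 shared 82.5% with each of them. Over the exons of each gene, no window of 101 bases, the read length, occurred exactly in another constant gene. Allowing 2 mismatches, 14.4% of the windows of Ighg2c were found in Ighg2b and 7.76% of those of Ighg2b in Ighg2c or Ighg3, against none for Ighg1, Igha, Ighm, Ighd and Igkc. The reference genome is that of C57BL/6, which carries Ighg2c where some other strains carry the allele Ighg2a. Which of them these outbred mice carry was not analysed here, so values of Ighg2c and Ighg2b are uncertain where their reads are shared.

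The lambda genes are shown for the same reason, since Iglc1 and Iglc3 gave no values here and reads of Iglc3 could count for Iglc2. The 119 bases are on the minus strand of chromosome 16 in the same annotation, with capitals at the 30 positions not shared by all 3 genes. Iglc1 lies at chr16:19061953-19062071, Iglc2 at chr16:19198734-19198852 and Iglc3 at chr16:19065563-19065681.
Iglc1: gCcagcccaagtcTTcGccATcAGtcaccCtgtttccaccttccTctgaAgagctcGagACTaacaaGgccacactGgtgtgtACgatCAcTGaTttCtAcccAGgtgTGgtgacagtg
Iglc2: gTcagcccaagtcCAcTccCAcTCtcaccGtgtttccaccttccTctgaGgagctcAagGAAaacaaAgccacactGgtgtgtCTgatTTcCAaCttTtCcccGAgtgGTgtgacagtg
Iglc3: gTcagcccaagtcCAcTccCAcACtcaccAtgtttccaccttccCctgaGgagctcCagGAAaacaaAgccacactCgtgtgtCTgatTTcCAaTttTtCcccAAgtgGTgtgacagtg
Iglc2 and Iglc3 were identical at 94.1% of these bases, while Iglc1 shared 76.5% with Iglc2. Within 2 mismatches, 11.4% of the 101-base windows of Iglc2 were also found in Iglc3. The lambda value given here is therefore that of Iglc2, with any reads assigned to it from Iglc3.

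Antibody transcripts were more abundant in humanized colon for IgA, kappa, the lambda gene Iglc2 and 2 IgG subclasses, while IgM and IgD transcripts were not called. Of the 8 genes that passed the filter on low counts, 5 were higher in humanized mice (Igha, Igkc, Iglc2, Ighg1 and Ighg2b), 0 were lower and 3 were not called at FDR below 0.01 (edgeR exact test, Benjamini-Hochberg adjustment over 19863 genes). Over all tested genes, 9.2% were called higher, 10.1% lower and 19.3% in either direction. The quasi-likelihood test and DESeq2 also called 0 of the 8 lower, as did an unadjusted p below 0.05. The median log2 fold change (LFC, humanized over germ-free) was 3.09 over the 8 genes and 0.01 over all tested genes. The 2 groups did not overlap in RPKM for the same 5 genes, as was so for 8.67% of all tested genes with humanized mice higher and for 18.4% in either direction. With libraries scaled by total counts alone the 5 genes kept their direction and call, although the median LFC of all genes moved to -0.18 and 17.6% of the genes called were higher, against 47.8% with TMM. Ighg3 failed the filter and was not tested.

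**Figure D1:**
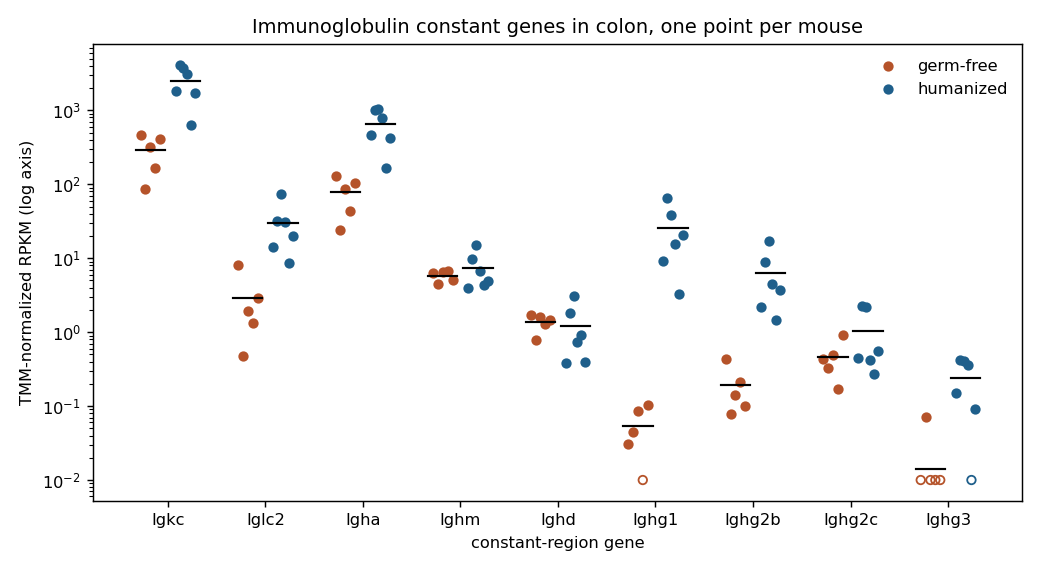
RPKM of the 9 constant genes on a log axis, with 1 point per mouse, germ-free in brown and humanized in blue. Black lines give group means, open circles at the foot of the axis stand for 0 reads, and humanized mice lie wholly above germ-free mice for Igkc, Iglc2, Igha, Ighg1 and Ighg2b.

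Igha (ENSMUSG00000095079, chr12:113254830-113260236) encodes the constant region of IgA, the antibody secreted onto mucosal surfaces. In germ-free mice 1 to 5 its level was 128, 24.4, 86.5, 43.9 and 105 RPKM, and in humanized mice 1 to 6 it was 469, 1014, 1044, 777, 163 and 428 RPKM. The highest germ-free mouse lay below the lowest humanized mouse, and the spread within each group was several-fold. Igha was 8.37-fold higher in humanized mice (LFC = 3.07, SE = 0.53, FDR = 1.36e-07, exact test).

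Both light-chain genes analysed rose alongside it. Igkc (ENSMUSG00000076609, chr6:70726435-70726757), the constant region of the kappa chain, was at 465, 86.4, 322, 167 and 406 RPKM in germ-free mice 1 to 5 and at 1835, 4131, 3706, 3068, 629 and 1690 RPKM in humanized mice 1 to 6. Again no germ-free mouse reached the lowest humanized mouse, and the order of mice within a group was close to that for Igha. Igkc was 8.67-fold higher (LFC = 3.12, SE = 0.53, FDR = 9.45e-08). Iglc2 (ENSMUSG00000076937, chr16:19198401-19200351), a lambda constant region, was at 7.98, 0.473, 1.92, 1.35 and 2.86 RPKM in germ-free mice and at 14.2, 31.8, 73.4, 31.2, 8.61 and 19.7 RPKM in humanized mice. Germ-free mouse 1 stood close to humanized mouse 5, and in counts scaled by the library total alone the groups overlapped. Iglc2 was 10.2-fold higher (LFC = 3.35, SE = 0.70, FDR = 4.16e-05), and without germ-free mouse 1 its LFC was 4.17.

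Ighg1 (ENSMUSG00000076614, chr12:113325240-113330523), the constant region of IgG1, differed more between the groups than any other constant gene tested here. Germ-free mice 1 to 5 had 5, 6, 13, 0 and 19 reads, and humanized mice 1 to 6 had 881, 6248, 4760, 1582, 407 and 2697 reads. Per length, this was at most 0.105 RPKM in germ-free mice and from 3.31 to 64.9 RPKM in humanized mice. The groups did not overlap, and humanized mice themselves spread widely, with mouse 5 the lowest and mouse 2 the highest. The LFC was 8.88 (SE = 0.95, FDR = 4.40e-16), a 469.6-fold difference whose size rests on only 43 germ-free reads.

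Ighg2b (ENSMUSG00000076613, chr12:113302965-113307933), the constant region of IgG2b, was at 0.438, 0.0785, 0.140, 0.209 and 0.101 RPKM in germ-free mice and at 2.17, 8.88, 17.3, 4.49, 1.46 and 3.68 RPKM in humanized mice. The groups did not overlap, and humanized mouse 3 was the highest. Ighg2b was 32.5-fold higher (LFC = 5.02, SE = 0.73, FDR = 9.87e-10), and without humanized mouse 3 its LFC was 4.41. Ighg2c (ENSMUSG00000076612, chr12:113285325-113288932), the constant region of IgG2c, gave another picture. It was at 0.431, 0.331, 0.490, 0.169 and 0.906 RPKM in germ-free mice and at 0.452, 2.25, 2.18, 0.426, 0.270 and 0.557 RPKM in humanized mice. Only humanized mice 2 and 3 lay above the germ-free range, and the difference was not called (LFC = 1.13, SE = 0.61, FDR = 0.166). Ighg3 (ENSMUSG00000076615, chr12:113359575-113361232), for IgG3, had 4 reads over the germ-free mice, all in mouse 2, and 64 over the humanized mice, with 0 in mouse 5.

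Ighm (ENSMUSG00000076617, chr12:113418558-113422730) encodes the constant region of IgM, carried by naive B cells. It was at 6.28, 4.45, 6.49, 6.61 and 5.10 RPKM in germ-free mice and at 4.00, 9.61, 15.3, 6.76, 4.29 and 4.86 RPKM in humanized mice. Humanized mice 2 and 3 were the highest, 3 of the 6 humanized mice lay within the germ-free range or below it, and no difference was called (LFC = 0.37, SE = 0.32, FDR = 0.449). Ighd (ENSMUSG00000104213, chr12:113406604-113416324), spliced from the same transcript for IgD, was at 1.73, 0.774, 1.61, 1.27 and 1.44 RPKM in germ-free mice and at 0.387, 1.83, 3.08, 0.730, 0.908 and 0.399 RPKM in humanized mice. The groups overlapped (LFC = -0.16, SE = 0.49, FDR = 0.855), and the sign of this small difference changed, to 0.022, when humanized mouse 1 or 6 was left out. Samples were whole tissue, in which fewer cells of a type and less RNA per cell cannot be told apart.

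The order of the genes by mean RPKM with deposited lengths differed between the groups in its middle. In germ-free mice it was Igkc, Igha, Ighm, Iglc2, Ighd, Ighg2c, Ighg2b, Ighg1 and Ighg3, and in humanized mice it was Igkc, Igha, Iglc2, Ighg1, Ighm, Ighg2b, Ighd, Ighg2c and Ighg3. Igkc exceeded Igha, and Igha the next gene, in all 5 germ-free and all 6 humanized mice. In both groups only Igha and the gene after it had ranges that were apart, and all other neighbours overlapped, Igkc and Igha included. Ighg1 exceeded Ighm in 5 of 6 humanized mice while Ighg2c exceeded Ighg2b in 3 of 5 germ-free mice. Gene lengths deposited with the counts enter these levels. For Igha the deposited length of 2668 bases includes more than the 1031 coding bases of the secreted form, whereas for Igkc the lengths were 323 and 320 bases. The Igha to Igkc ratio was accordingly 0.269 in germ-free and 0.258 in humanized mice (geometric means) with deposited lengths, and 0.691 and 0.661 with coding lengths. With coding lengths the germ-free order did not change, whereas in humanized mice Ighg1 (67.9 RPKM) passed Iglc2 (57.4 RPKM) and Ighg2b (16.8 RPKM) passed Ighm (10.3 RPKM).

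The mixture of isotypes was then compared as shares within each mouse. Each share is the RPKM of a gene as a percent of the 7 heavy-chain genes, and since the shares sum to a whole, a share can fall where the level does not. The mixture differed between the groups for IgM, IgD, IgG1, IgG2b, IgG2c and IgG as a sum, and IgA made up most of it in every mouse. Shares and ratios were compared with an exact two-sided permutation test over the 462 splits of the mice, for which the smallest possible p is 0.00433, and p-values were adjusted over the 17 measures compared. Of these, 9 had an adjusted p below 0.05. The measures are linked, since the IgG share is the sum of its subclasses and the shares of a mouse add to a whole. The 9 are therefore not independent results.

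Igha took 93.5%, 80.9%, 90.8%, 84.2% and 93.2% of heavy-chain RPKM in germ-free mice 1 to 5 and 96.6%, 92.0%, 93.1%, 96.5%, 94.1% and 93.4% in humanized mice 1 to 6. The means were 88.5% ± 5.66 (SD, n = 5) and 94.3% ± 1.87 (SD, n = 6), and the groups overlapped. The difference had p = 0.0433 and adjusted p = 0.0669 (exact permutation test), with p = 0.147 on raw counts and p = 0.234 with coding lengths. The level of Igha thus differed between the groups, whereas its share did not pass after adjustment. Ighm took 4.60%, 14.7%, 6.81%, 12.7% and 4.52% in germ-free mice and 0.824%, 0.872%, 1.36%, 0.840%, 2.47% and 1.06% in humanized mice. Its mean share was 8.67% ± 4.75 (SD, n = 5) against 1.24% ± 0.636 (SD, n = 6), with no overlap (p = 0.00433, adjusted p = 0.0092, exact permutation test). With coding lengths the Ighm share was 4.90% against 0.666%, at the same exact permutation p. Ighd fell from 1.85% ± 0.625 (SD, n = 5) to 0.203% ± 0.173 (SD, n = 6), also without overlap and with the same exact permutation p of 0.00433. For IgM and IgD the share was thus lower in humanized mice while the level was not called.

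**Figure D2:**
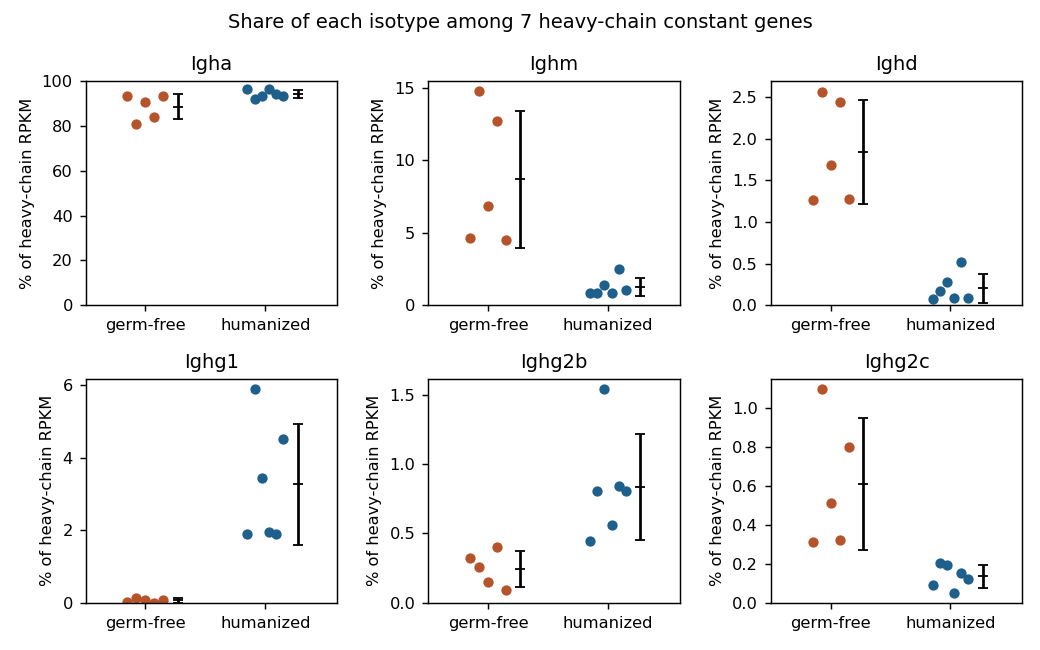
Percent of the summed RPKM of 7 heavy-chain constant genes taken by each of 6 genes, with 1 point per mouse and the mean ± SD in black, and with a separate y axis from 0 in each panel. Igha lies between 80.9% and 96.6% in every mouse, Ighm, Ighd and Ighg2c shares are lower in all humanized mice, and Ighg1 and Ighg2b shares are higher.

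The 4 IgG genes together took 0.659%, 1.74%, 0.751%, 0.725% and 0.985% of heavy-chain RPKM in germ-free mice and 2.48%, 6.94%, 5.23%, 2.60%, 2.90% and 5.48% in humanized mice. Their mean was 0.972% ± 0.447 (SD, n = 5) and 4.27% ± 1.86 (SD, n = 6), a 4.39-fold difference without overlap (p = 0.00433, adjusted p = 0.0092, exact permutation test). Ighg1 accounted for most of this, with 0.0704% ± 0.0591 (SD, n = 5) against 3.27% ± 1.67 (SD, n = 6). In germ-free mouse 4, 0 of 8291 heavy-chain reads were from Ighg1, which allows a share of up to 0.0362%. In humanized mouse 5, the lowest, the share in reads was 1.87% (95% Wilson interval 1.70% to 2.06%), an interval that, like the limit, covers counting error only. Ighg2b rose from 0.244% ± 0.127 (SD, n = 5) to 0.833% ± 0.382 (SD, n = 6), while Ighg2c fell from 0.611% ± 0.337 (SD, n = 5) to 0.137% ± 0.0590 (SD, n = 6). The groups were apart for all 3 subclasses, each at the exact permutation p of 0.00433. The size of the Ighg2c share depends on the length used, and as a share of raw counts it was 0.316% against 0.0685%, with the same direction and p (exact permutation test). Ighg3 shares did not separate the groups (p = 0.909, exact permutation test).

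Within IgG, Ighg1 led in all 6 humanized mice and in 0 of 5 germ-free mice, where Ighg2c led in 3 and Ighg2b in mice 1 and 4. Ighg1 was 3.40%, 8.43%, 12.0%, 0% and 9.43% of IgG RPKM in germ-free mice 1 to 5 and 77.0%, 84.9%, 66.1%, 74.8%, 65.6% and 82.7% in humanized mice 1 to 6. Ighg2c took 47.9%, 63.2%, 68.4%, 44.7% and 81.5% in germ-free mice and 3.76%, 2.95%, 3.72%, 2.03%, 5.36% and 2.22% in humanized mice. No mouse of 1 group entered the range of the other for either gene. The mean of Ighg1 was 6.65% ± 4.85 (SD, n = 5) against 75.2% ± 8.11 (SD, n = 6), and that of Ighg2c 61.1% ± 15.1 (SD, n = 5) against 3.34% ± 1.23 (SD, n = 6), each with p = 0.00433 and adjusted p = 0.0092 (exact permutation test). As shares of raw IgG counts, Ighg1 was 10.3% against 76.2% and Ighg2c 46.6% against 1.73%, each at the same exact permutation p. Ighg2b took 48.7%, 14.96%, 19.6%, 55.3% and 9.12% in germ-free mice and from 11.6% to 29.5% in humanized mice, and the groups overlapped (p = 0.355, exact permutation test). As a share of raw IgG counts Ighg2b was 41.3% against 21.7% (p = 0.143, exact permutation test).

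The number of IgG reads behind these subclass shares was unequal. Germ-free mice had 44 to 122 IgG reads each and humanized mice 610 to 7259. In germ-free mouse 2, which had the fewest, Ighg2c was 52.3% of IgG reads with a 95% Wilson interval of 37.9% to 66.2%. In humanized mouse 5, with the fewest of its group, it was 2.79% with an interval of 1.75% to 4.42%. The separation of the groups was thus wider than the counting error of the mouse with the fewest IgG reads in each. The sharing of reads between Ighg2c and Ighg2b noted with the sequences applies to both groups, and its part in the result was not tested.

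**Figure D3:**
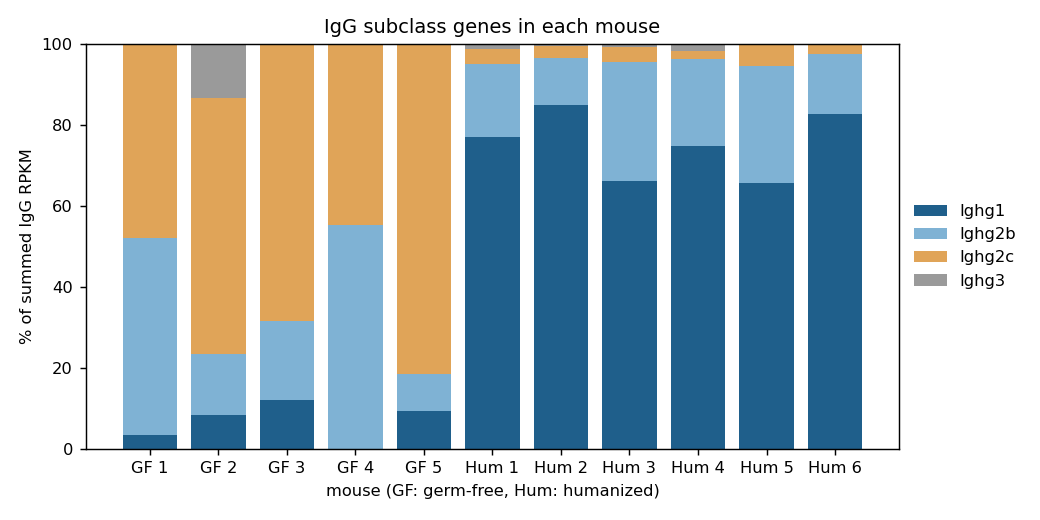
Percent of summed IgG RPKM taken by Ighg1, Ighg2b, Ighg2c and Ighg3 in each of 5 germ-free (GF) and 6 humanized (Hum) mice, stacked to the whole. Ighg1 makes up 65.6% to 84.9% in humanized mice and at most 12.0% in germ-free mice, where Ighg2c makes up 44.7% to 81.5%.

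Pairs of genes that work together were compared as log2 ratios. Heavy to light chains stood at -1.73 ± 0.13 (SD, n = 5) without microbiota and at -1.89 ± 0.07 (SD, n = 6) in humanized colon, with overlap (p = 0.0216, adjusted p = 0.0409, exact permutation test). This small difference did not pass with medians (p = 0.0779) or coding lengths (p = 0.0563) in the same exact permutation test. The Ighm to Ighd ratio was 2.12 ± 0.31 (SD, n = 5) against 2.86 ± 0.61 (SD, n = 6), with p = 0.0390 and adjusted p = 0.0662 (exact permutation test). Igha to Igkc (p = 0.126) and Igha to Jchain (p = 0.303), the J chain that joins IgA, gave no separation by the exact permutation test, at -1.89 against -1.96 and 1.26 against 1.16. Iglc2 as a share of light-chain RPKM was 0.865% ± 0.470 (SD, n = 5) and 1.16% ± 0.443 (SD, n = 6), a difference that did not pass (p = 0.316, exact permutation test) but had p = 0.0286 without germ-free mouse 1, whose share was 1.69%. As a share of raw counts Iglc2 was 1.61% against 2.16% (p = 0.307, exact permutation test).

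In the list of plasma cell genes, 10 of 16 tested were higher, 0 were lower, and the median LFC was 1.10, against 9.2% of all tested genes called higher. The quasi-likelihood test called 6 of the 16, and an unadjusted p below 0.05 marked 13 higher and 0 lower. Mzb1, a chaperone of antibody assembly (LFC = 3.49, FDR = 1.63e-08), Tnfrsf17, the receptor BCMA (LFC = 3.32), Jchain (LFC = 3.21, FDR = 6.64e-08), Derl3 (LFC = 2.28) and Pou2af1, a B-lineage coactivator (LFC = 2.18), rose most. Jchain, listed in the table under its older symbol Igj, was at 32.0 ± 18.2 RPKM (SD, n = 5) in germ-free and 295 ± 182 RPKM (SD, n = 6) in humanized mice. By log2 CPM over the 11 mice, the genes closest to Igha outside the immunoglobulin genes were Jchain (Pearson r = 0.997), Mzb1 (0.991), Derl3 (0.982), Pou2af1 (0.975) and Fcho1 (0.964). For the 4 IgG genes summed they were Gm15848 (0.978), Mzb1 (0.969), Jchain (0.967), Strip2 (0.967) and Ceacam10 (0.966). These correlations are descriptions, since the mice share their group and its differences.

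Of the B cell surface and lineage genes, 2 of 12 tested were higher and 0 lower, against 9.2% of all tested genes called higher. They were Cd79a of the B cell receptor (LFC = 1.62, FDR = 0.00911) and the transcription factor Spib (LFC = 1.27), with a median LFC of 1.19. The quasi-likelihood test called 1 of the 12, and an unadjusted p below 0.05 marked 7 higher and 0 lower. The count fell to 1 when any germ-free mouse or humanized mouse 2, 3 or 4 was left out, and was 3 without humanized mouse 5. Summed over the list, germ-free mice were at 3.26 to 6.94 RPKM and humanized mice 1 to 6 at 7.61, 21.3, 27.1, 8.34, 5.38 and 5.95 RPKM. The 2 humanized mice highest in this sum, mice 2 and 3, were also the 2 highest of their group in each of the 9 constant genes. The plasma cell sum ran from 177 to 219 RPKM in germ-free and from 287 to 827 RPKM in humanized mice, without overlap. Its largest germ-free means were those of Xbp1 (60.1 RPKM) and Sdc1 (59.0 RPKM), against 90.9 and 64.8 RPKM in humanized mice. Sdc1 was not called. Jchain alone, with means of 32.0 RPKM in germ-free and 295 RPKM in humanized mice, made up most of the difference in this sum.

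**Figure D4:**
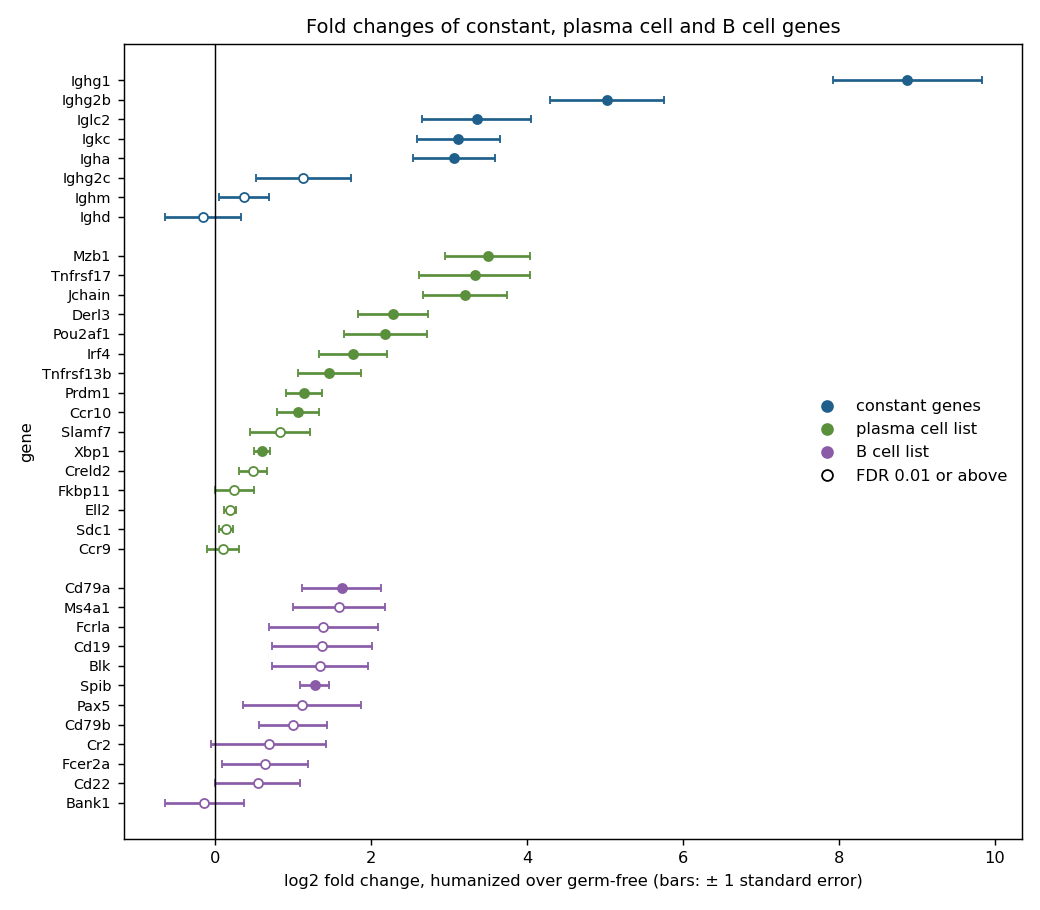
Log2 fold change (humanized over germ-free) with ±1 standard error for the 8 constant genes tested, the plasma cell list and the B cell list, with open points for FDR of 0.01 or above. Ighg1 stands farthest right at 8.88, Igha, Igkc and Iglc2 lie among the top plasma cell genes near 3, and Ighm and Ighd lie near 0.

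Of 17 tested genes that carry out class switching, 0 were called higher or lower, against 19.3% of all tested genes, with a median LFC of 0.05, and the quasi-likelihood test also called 0. An unadjusted p below 0.05 marked 0 higher and 1 lower, Rif1, a DNA-end protection factor (LFC = -0.26, FDR = 0.0176), named after its value was seen. Without humanized mouse 2 or 3, 1 of the list was called. Ighe, the IgE constant region, was too low to be tested, with 9 reads over the germ-free and 82 over the humanized mice. In the germinal centre list 1 of 10 tested genes was higher, Rgs13 (LFC = 1.55), and 0 were lower (quasi-likelihood test 1 in all, unadjusted p below 0.05 for 2 higher and 1 lower), close to the 9.2% of all tested genes called higher. Of 2 other tested genes related to antibody chains, Vpreb3 was higher (LFC = 2.89), against 9.2% of all tested genes called higher. Vpreb1, of the surrogate light chain, was not called (LFC = -0.25, FDR = 0.546).

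Among genes for signals that direct isotype choice or B cell survival, 1 of 14 tested was higher and 2 were lower, a share close to the 19.3% of all tested genes called in either direction. The 3 are named by the rule and not as a result about these signals. Tnfsf13, which encodes APRIL, a survival factor for plasma cells, was higher (LFC = 0.97). Tgfbr2, a receptor for TGF-beta, the cytokine that directs switching to IgA, was lower (LFC = -0.64), as was Aldh1a2, an enzyme of retinoic acid synthesis (LFC = -1.41). Of 10 tested genes for transport and receptors of antibodies, 3 were higher and 0 lower, against 9.2% of all tested genes called higher, with 3 called by the quasi-likelihood test and 4 higher and 1 lower at an unadjusted p below 0.05. Pigr, the polymeric immunoglobulin receptor of the epithelium, was at 564 ± 22.7 RPKM (SD, n = 5) in germ-free and 1303 ± 191 RPKM (SD, n = 6) in humanized mice (LFC = 1.21). The others were Fcamr (LFC = 0.85), a receptor for IgA and IgM, and Fcgrt (LFC = 0.56), the neonatal receptor that spares IgG from breakdown.

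Markers of other cell types were read against the 9.2% of all tested genes called higher and the 10.1% called lower. All 8 smooth muscle genes were lower in humanized mice, with a median LFC of -2.03, and their sum was 328 to 957 RPKM in germ-free and 53.0 to 342 RPKM in humanized mice. The quasi-likelihood test called 4 of these 8, and 5 were called without germ-free mouse 4. T cell genes were higher for 7 of 10 tested with a median LFC of 1.04, epithelial genes for 3 of 13 with a median LFC of 0.21, and of 5 lymphoid stroma genes only Ccl21a, a chemokine of lymphatic vessels, was called, lower at an LFC of -1.08. The Ccl21a call was lost with the quasi-likelihood test (FDR = 0.0245), and 0 genes of this list were called when any germ-free mouse or humanized mouse 1, 2 or 4 was left out. The part of these differences in tissue makeup in the levels of the constant genes was not tested. Shares within heavy chains and within IgG compare genes of 1 library and do not change with its scaling.

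**Figure D5:**
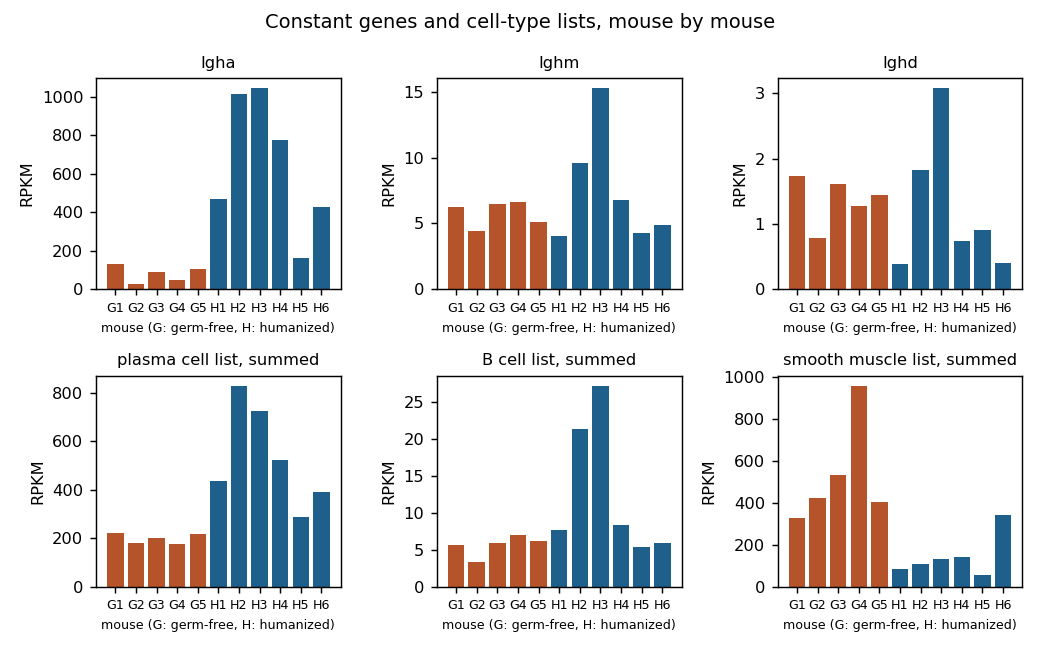
RPKM in each germ-free (G, brown) and humanized (H, blue) mouse for Igha, Ighm and Ighd and for the summed plasma cell, B cell and smooth muscle lists, each panel with its own axis from 0. Humanized mice 2 and 3 are highest in all panels but that of smooth muscle, and humanized mouse 6 is the only one whose smooth muscle sum reaches the germ-free range.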

How the data were processed

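Colonic polyA RNA was prepared with a TruSeq v2 kit, which does not mark strand, and sequenced as paired 101-base reads. The authors aligned reads to mm10 with TopHat 2.1.0, which calls Bowtie 2.2.3, and counted them with featureCounts of Subread 1.4.6-p5, and they deposited raw counts per gene for 11 mice with a length per gene. The annotation release is not given in the sources used here.

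Counts were filtered with filterByExpr defaults (minimum count 10, total 15, large n 10, proportion 0.7), leaving 19863 genes, scaled with TMM and compared by the exact test in edgeR 4.0.16 (R 4.3.3) with Benjamini-Hochberg adjustment at FDR below 0.01. Standard errors came from the quasi-likelihood fit. RPKM used TMM-scaled libraries and deposited lengths. For correlations, counts were turned into log2 CPM (prior count 2). Shares and ratios were compared with scipy 1.17.1. Subclass shares needed 20 IgG reads per mouse. Wilson intervals were at 95%, and a count of 0 was read as allowing 3 counts. The test was tried on simulated data.

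Alternatives were DESeq2 1.42.0, other scalings and filters, each mouse left out, a replicate block, raw counts, medians and log odds, and, chosen after seeing the data, coding lengths. Named were all members, up to 5 called genes per list with the largest LFC, Jchain, Pigr and 1 further gene that is not reported here, and the 5 genes nearest to Igha and to IgG. The members and gene lists were chosen with earlier results of these data known. The numbers of the mice refer to different animals. With 11 single-tissue samples, p-values set the difference between the groups against the spread between mice. That spread does not cover effects of the isolator or of the single stool donor.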

Additional observations from a re-analysis of the deposited data

Results flagged for a closer look

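A mouse stood apart from the rest of its group in 8 of 52 sets of values examined by the gap of the highest or lowest mouse to its neighbour. Chance flags about 1 in 20 groups.

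Humanized mouse 3 stood apart in 3 of them. Its Iglc2 level was 73.4 RPKM against 31.8 RPKM for the next mouse, its Ighg2b share of heavy-chain RPKM was 1.54% against 0.842%, and its log2 heavy to light ratio was -1.75 against -1.88. Humanized mouse 5, with the lowest Igha level of its group, had an Ighm share of 2.47%, the next being 1.36%. Germ-free mouse 1 had an Iglc2 share of light-chain RPKM of 1.69%, against 0.802% for the next.

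Germ-free mouse 2 stood apart in all 3 Ighg3 measures, on 4 reads. Its Ighg3 level was 0.0706 RPKM, its share of heavy-chain RPKM 0.234% and its share of IgG RPKM 13.5%, while the other germ-free mice had 0 reads.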

How the results depend on the processing

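The 5 constant genes called higher and their direction were kept under the quasi-likelihood test, DESeq2, RLE, upper-quartile and total-count scaling, no filter, FDR below 0.05 and without any single mouse, where 5 were called each time. With at least 10 counts required in every mouse, Ighg1 was no longer tested and 4 were called. With the replicate number as a replicate block, 2 constant genes were called, and Igha (FDR = 0.0217), Igkc (FDR = 0.0222) and Iglc2 (FDR = 0.0275) were not. The block left 506 genes higher and 506 lower over all genes. The numbers only name the mice: same-numbered mice deviated with correlations of -0.05, -0.13, 0.09, 0.09 and -0.07 and 1 of 5 numbers was its own best match. Over all genes 1827 were called higher and 1999 lower, against 1298 lower with the quasi-likelihood test, 773 higher and 3609 lower with total-count scaling and 2780 higher at FDR below 0.05.

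The quasi-likelihood test called 1 B cell, 6 plasma cell, 0 lymphoid stroma and 4 smooth muscle genes. Without the filter on low counts, 1 B cell, 2 other immunoglobulin and 0 lymphoid stroma genes were called, and Ighg3 had LFC 3.97 (FDR = 0.0151). The cause was not tested.

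With 1 mouse left out, the called genes ranged from 1 to 3 (B cell), 0 to 1 (class switch), 1 to 2 (germinal centre), 0 to 1 (lymphoid stroma) and 5 to 8 (smooth muscle, with 5 without germ-free mouse 4). The LFC of Ighd ranged from -0.69 to 0.022, being 0.022 without humanized mouse 1 or 6. The difference in share, humanized minus germ-free, ranged from 3.89 to 7.02 percentage points for Igha (exact permutation p from 0.0286 to 0.0952), from -0.0302 to 0.0284 for Ighg3 of heavy chains and -2.60 to 0.763 for Ighg3 of IgG (both positive only without germ-free mouse 2), and from 0.144 to 0.505 for Iglc2. The log2 ratio differences ranged from 0.59 to 0.86 for Ighm to Ighd and from -0.088 to -0.046 for Igha to Igkc, which passed only without humanized mouse 3 (exact permutation p = 0.0159).

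The Igha share difference was 3.28 points on raw counts and 2.25 with coding lengths. The heavy to light difference was -0.14 with medians and -0.11 with coding lengths. With medians the sign turned for Ighg3 of heavy chains (0.0338), Ighg2b of IgG (0.108) and Ighg3 of IgG (0.626), and with log odds for Ighg3 of heavy chains (0.70). The light-chain denominator with other lambda genes and a minimum of 100 IgG reads, which only 2 germ-free mice had, were not run. Low read numbers limit the values of Ighg1 and Ighg3 in germ-free mice, with 43 and 4 reads over the group.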
